A study of Mus musculus with 7 samples.

Results

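The chemokine ligands are the secreted proteins, or membrane-bound ones in a few cases, that direct the movement of leukocytes and other cells. They were followed here in the gastric corpus of mice over 72 h after a toxin directed at the acid-secreting parietal cells. Members were taken by symbol: a gene was included if its name consisted of Ccl, Cxcl, Cx3cl or Xcl followed by a number and at most 1 letter, and if a probe set on the array was annotated to that gene alone. Of 22180 genes on the array 34 met this rule. The rule itself uses no measured value, but it was chosen with earlier results of these data known. A further 6 ligand names, Ccl19, Ccl21a, Ccl21b, Ccl21c, Ccl21d and Ccl27b, occur only in probe sets that are annotated to several genes, and were not analysed here. Each of 33 members had 1 probe set, and Ccl27a had 2, of which the one with the higher mean was used.

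All 7 samples came from Atp4b-DTR mice of 8 to 12 weeks, which express the diphtheria toxin receptor from the promoter of Atp4b, the gene of the proton pump beta subunit of parietal cells. Control mice carried the same transgene and received saline vehicle intraperitoneally. The other mice received 225 ng of diphtheria toxin per mouse on each of 3 days, and the corpus was taken 24, 36, 48 or 72 h after the last dose. The control, 24 h and 36 h groups had 1 array each, and the 48 h and 72 h groups had 2 arrays each, described as independent samples. No group of mice without the transgene was analysed here, so effects of the toxin that do not pass through the receptor cannot be told apart from those that do.

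Chemokines bind G protein-coupled receptors on their target cells, and most are named for the spacing of the first cysteines (CC, CXC, CX3C and C). Inflammatory members are switched on in injured or infected tissue by interferons, NF-κB and cytokines, while homeostatic members such as Cxcl12 are made steadily by stroma and place cells within tissues. In the gut and stomach, epithelial cells themselves make several ligands, among them Cxcl16, Cxcl17 and Ccl28.

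Values are log2 signal after robust multi-array averaging, so a difference of 1 is a 2-fold difference. Signals of different probe sets depend on their probes and are not compared as abundances. The array medians ran from 4.56 to 4.71, and no read depth exists for arrays, whose number limits the precision. A gene was called when limma's Benjamini-Hochberg adjusted p over all 22180 genes was under 0.05. These p-values measure only the spread between these arrays, and the single control array was assumed to vary like the others. The median difference of 7 parietal cell markers from control was -1.41 and -0.61 on the 24 h and 36 h arrays, -1.27 and -0.55 on the 48 h pair and -0.41 and -0.15 on the 72 h pair, so the labelled loss was deepest at 24 h and on the first array of 48 h. The control and 24 h arrays shared a female pattern of sex-linked genes (Xist at 8.13 and 9.17, against 2.70 to 3.27 on the other 5). A comparison of the control or the 24 h array with 36, 48 or 72 h is therefore also one between patterns. A slope fitted over time on the toxin arrays spans both patterns too. In whole tissue, fewer cells of a type and less RNA per cell cannot be told apart.

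The median of the array medians was 4.64, and 17 of the 34 ligands had a mean below it. From the lowest mean upward these were Cxcl3, Ccl12, Ccl8, Cxcl15, Cxcl5, Ccl17, Ccl26, Xcl1, Ccl22, Ccl24, Cxcl2, Ccl3, Cxcl9, Cxcl1, Cxcl11, Ccl1 and Ccl7. The other 17, from the lowest mean upward, were Ccl6, Ccl2, Ccl20, Cxcl13, Ccl4, Ccl27a, Ccl5, Ccl9, Ccl25, Cxcl10, Ccl28, Cx3cl1, Cxcl12, Ccl11, Cxcl14, Cxcl16 and Cxcl17. The set below the median holds all 5 ligands that attract neutrophils and 3 of 4 ligands of CCR2 on monocytes. The set above it holds all 8 ligands listed here as epithelial. Each array's own median gave 11 genes below on all 7 arrays, 15 above on all 7, and 8 on both sides (Ccl1, Ccl2, Ccl6, Ccl7, Cxcl1, Cxcl11, Cxcl2 and Cxcl9).

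Some probe sets, on both sides of the median, carried little information. The summary step left equal values on several arrays: 16 members had 7 distinct values over the 7 arrays, 8 had 5 or 6, and 10 had 2 to 4 (Ccl1, Ccl24, Ccl3, Ccl5, Ccl8, Cx3cl1, Cxcl1, Cxcl13, Cxcl15 and Xcl1). Over all genes 39.7% had 7 distinct values. A difference of 0 in such a gene is a repeated summary value and not a measurement of equal RNA.

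**Figure D1:**
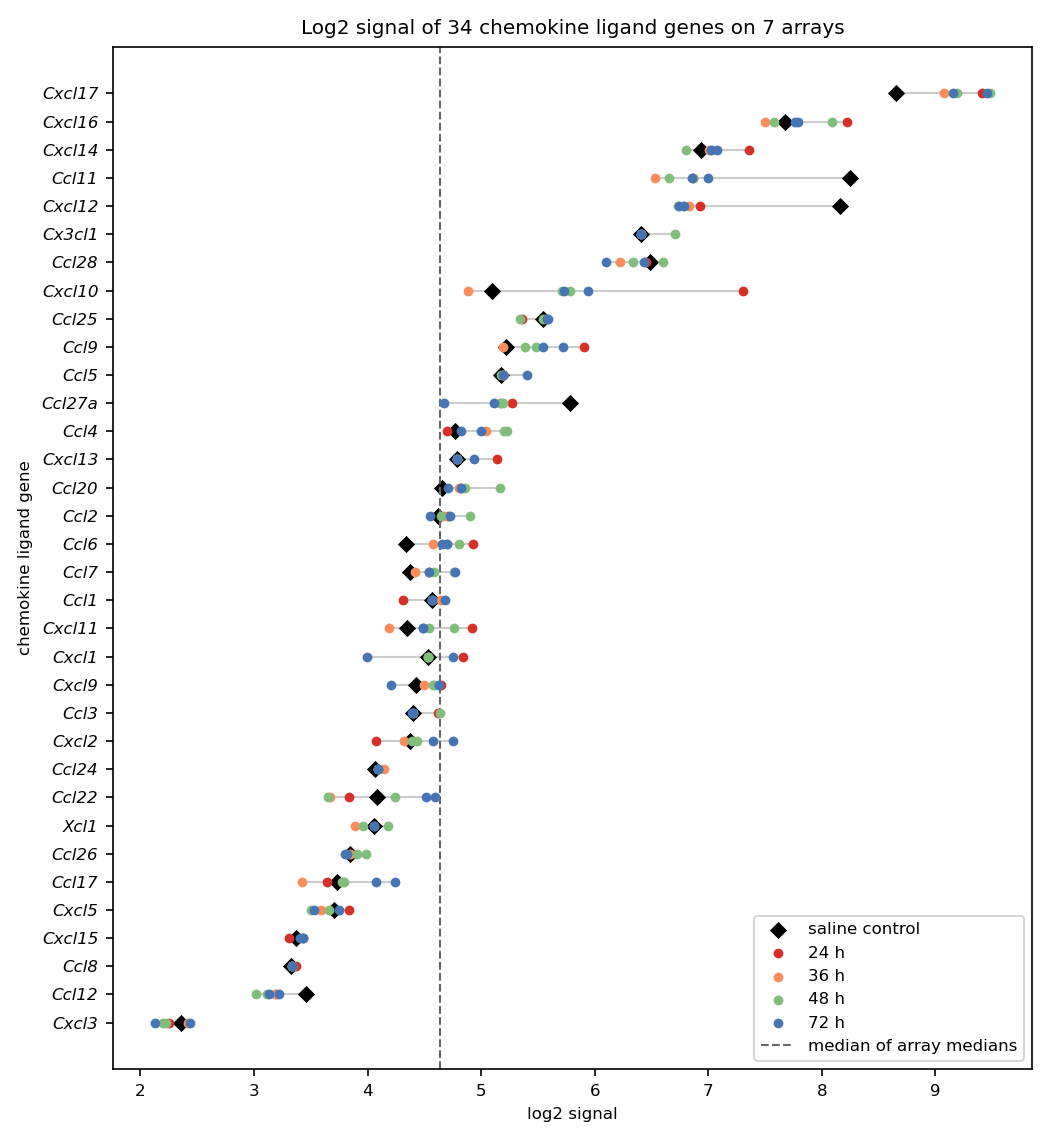
Log2 signal (x axis) of the 34 chemokine ligand genes (y axis, ordered by mean), 1 point per array: black diamonds are the saline control and coloured points the toxin arrays by time, with a dashed line at 4.64, the median of the array medians. The control diamonds of Ccl11 and Cxcl12 lie to the right of all 6 toxin points, and the 24 h point of Cxcl10 lies far to the right of its other 6.

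The widest single difference in the family was that of Cxcl10, a ligand of CXCR3 on activated T cells and natural killer cells that is induced by interferons. Its probe set (17449718, chromosome 5) read 5.09 in the control, 7.30 at 24 h, 4.89 at 36 h, 5.78 and 5.71 on the 48 h pair, and 5.94 and 5.73 on the 72 h pair. The 24 h array stood 2.21 above the control, or 4.63-fold, the 36 h array lay 0.21 below it on the log2 scale (a difference of -0.21), and the 48 h and 72 h arrays formed a tight group between. The 24 h group is 1 array, so its peak has no replicate check, and it differs from the later arrays in sex-linked pattern as well as in time. The later values were 0.65 ± 0.12 (SE) above the control at 48 h and 0.74 ± 0.12 at 72 h, with adjusted p of 0.152 and 0.160 in limma, and were not called. Over all 6 toxin arrays the difference was 0.80 ± 0.73 (adjusted p 0.693, limma), and 5 of 6 arrays lay above the control; without the 24 h array it was 0.52.

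Cxcl11, which shares the receptor, read 4.35 in the control, 4.92 at 24 h, 4.19 at 36 h, 4.54 and 4.76 on the 48 h pair, and 4.48 on both 72 h arrays. It followed the order of Cxcl10 at the single-array times, high at 24 h and below the control at 36 h, although its mean lay below the array median. It was the only one of the 17 ligands below the median with a group difference of at least 0.5 from the control (0.57 at 24 h). Cxcl9, the third ligand of the receptor, ran from 4.21 on a 72 h array to 4.64 at 24 h around a control of 4.42. Its 24 h difference was 0.22, and the gap between its 72 h arrays, 0.43, was larger than that. Cxcr3, the receptor, read 4.75 in the control, 4.73 at 24 h and 4.56 to 4.94 over the later arrays.

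The promoter windows of Cxcl10 and Cxcl9 were chosen for display after their values at 24 h were seen. Both are RefSeq windows of 300 bases on GRCm38.p6, from 250 bases before to 50 bases after the gene's start, on the minus strand: chr5:92348840-92349139 for Cxcl10 and chr5:92328030-92328329 for Cxcl9. Capitals mark matches, on either strand, to the core of an interferon-stimulated response element, GAAANNGAAA, and to an NF-κB motif, GGGANNTTCC.
Cxcl10: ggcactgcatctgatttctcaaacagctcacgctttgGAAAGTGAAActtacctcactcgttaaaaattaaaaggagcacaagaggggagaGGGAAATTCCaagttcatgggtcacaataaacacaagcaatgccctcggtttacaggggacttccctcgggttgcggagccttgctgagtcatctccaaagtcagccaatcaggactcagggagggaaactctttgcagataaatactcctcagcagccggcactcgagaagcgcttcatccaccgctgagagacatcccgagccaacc
Cxcl9: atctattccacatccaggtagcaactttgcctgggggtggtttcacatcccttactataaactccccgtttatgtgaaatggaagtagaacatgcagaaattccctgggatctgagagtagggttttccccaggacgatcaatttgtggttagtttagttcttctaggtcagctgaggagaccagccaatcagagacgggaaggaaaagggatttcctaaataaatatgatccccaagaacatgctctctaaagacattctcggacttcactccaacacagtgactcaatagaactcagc
The Cxcl10 window holds both, GAAAGTGAAA from -213 to -204 and GGGAAATTCC from -159 to -150 relative to the start, and the Cxcl9 window holds neither. Of 32851 mouse windows of the same length 3.44% held the first motif and 1.47% the second. Windows were found for 23 of the 34 members: 2 of the 23 held the first motif (Cxcl10 and Cxcl14) and 5 the second (Cxcl10, Cxcl1, Cxcl2, Cxcl3 and Ccl1). A match is a run of letters and no measure of binding, and sites that differ from these patterns were not counted. Whether the motifs bear on the values at 24 h was not tested. There was no window for Cxcl11.

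A list of genes that induce chemokines, together with targets and an inhibitor of NF-κB, was followed beside the CXCR3 ligands. Of 21 listed, 19 were measured, and 0 of the 19 were called in the toxin arrays against control in limma, where 6.58% of all genes were. At 24 h 15 of the 19 lay above the control, as did 9939 of all 22180 genes. Irf7, an interferon-induced transcription factor, read 5.41 in the control, 7.13 at 24 h, 6.59 at 36 h, 6.99 and 6.09 on the 48 h pair, and 7.22 and 7.43 on the 72 h pair. Thus Irf7 was above the control on all 6 toxin arrays, with no return at 36 h like that of Cxcl10. Nfkbia, the inhibitor of NF-κB that is itself an NF-κB target, read 8.26 in the control, 9.36 at 24 h and between 8.39 and 8.70 on the other 5 arrays. Tnfaip3 and Relb, also targets of that factor and named after their values were seen, stood 0.94 and 0.84 above the control at 24 h. These 3 genes were highest on the array on which Cxcl10 was highest. Others of the list were not: Nfkbiz stood 0.24 above the control at 24 h and 0.67 on the first 48 h array, and Irf1 0.37 and 0.50. Messages of the cytokines that induce Cxcl10 were dim: Ifng ran from 3.94 to 4.06 and Tnf from 4.16 to 4.56, all below the array medians. On the 24 h array the median difference of 14 macrophage and monocyte markers was 0.17, with 10 above the control and a summed linear signal of 1210 against 970 in the control. The median of 13 markers of T and natural killer cells was 0.11. What these markers contribute to Cxcl10 was not tested.

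**Figure D2:**
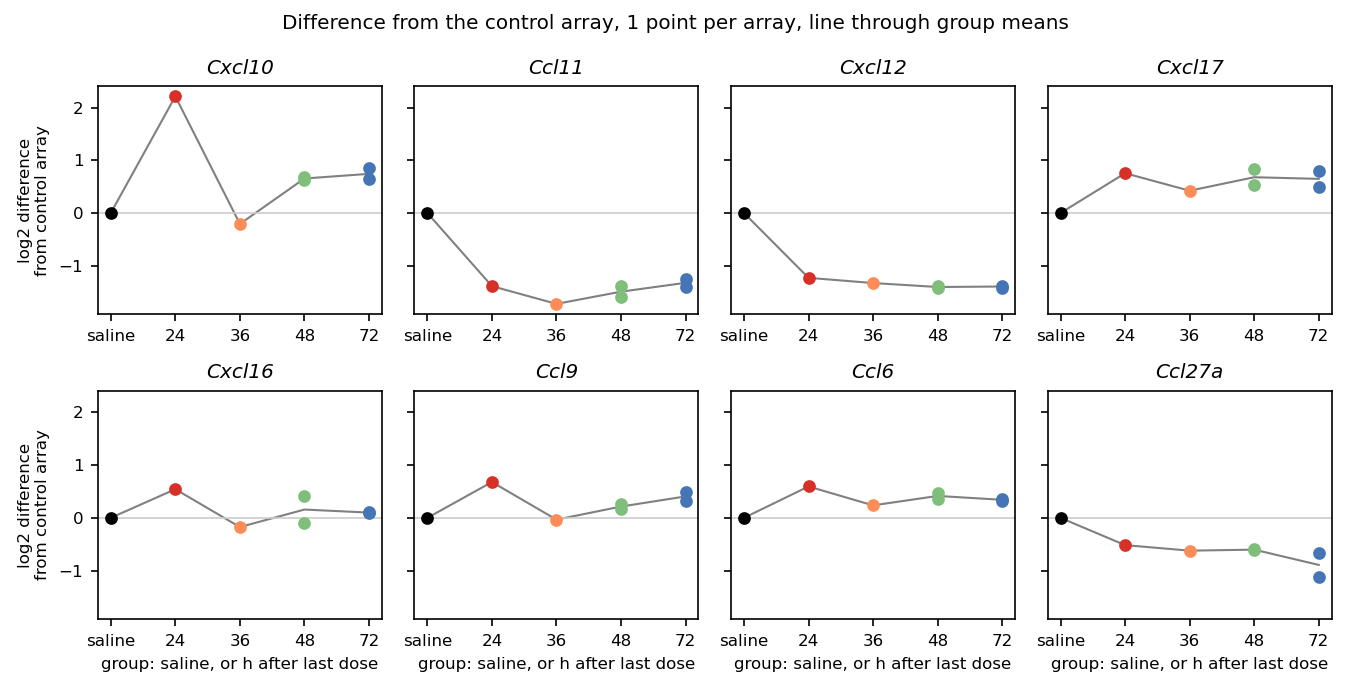
Log2 difference from the control array (y axis) against group (x axis: saline, or h after the last toxin dose) for 8 ligands above the median level with a group mean at least 0.5 from the control, 1 point per array and a line through group means. Cxcl10 peaks at 2.21 on the single 24 h array, while Ccl11 and Cxcl12 stay between -1.72 and -1.23 on all 6 toxin arrays.

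Cxcl12 and Ccl11 were the members with lower signal on every toxin array by more than 2-fold. Cxcl12, the ligand of CXCR4 made by stromal and vascular cells, which retains and positions leukocytes and progenitors, read 8.16 in the control (probe set 17462149, chromosome 6). It read 6.93 at 24 h, 6.83 at 36 h, 6.77 and 6.74 on the 48 h pair, and 6.75 and 6.78 on the 72 h pair. All 6 toxin arrays lay between 6.74 and 6.93, and none came near the control. Their mean was 6.80 ± 0.07 (SD, n = 6), and the difference of -1.36 ± 0.08 (SE), or 2.56-fold lower, passed the test (adjusted p 0.00286, limma).

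Ccl11, or eotaxin, which draws eosinophils through CCR3, read 8.25 in the control (probe set 17254053, chromosome 11). On the toxin arrays it read 6.86 at 24 h, 6.53 at 36 h, 6.65 and 6.86 on the 48 h pair, and 7.0 and 6.85 on the 72 h pair. The mean of the 6 was 6.79 ± 0.17 (SD, n = 6), and Ccl11 fell by 1.46 ± 0.17 (SE) on the log2 scale, or 2.75-fold (adjusted p 0.00847, limma). No toxin array overlapped the control, and the lowest was the 36 h array.

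These were the only calls among the ligands: 2 of 34 members (5.88%) were called in the toxin arrays against control, where 6.58% of all genes were called (1460 of 22180; 458 higher and 1002 lower). For the lower direction alone the background was 4.52%. The members' share is thus near that of all genes. With array medians subtracted, 223 of 1461 calls were higher, and the members called were again Ccl11 and Cxcl12. Among genes above the median level 9.48% were called, against 2 of 17 ligands. The test ignores time and sets 6 arrays against 1, so whatever is particular to that control array enters every difference; for both genes the 24 h array, of the same sex-linked pattern as the control, lay at -1.39 (Ccl11) and -1.23 (Cxcl12).

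At each time on its own the same 2 genes stood out in size. At 48 h Cxcl12 differed from the control by -1.40 ± 0.05 (SE) and Ccl11 by -1.49 ± 0.13, each with an adjusted p of 0.120 in limma. At 72 h the differences were -1.39 ± 0.05 and -1.32 ± 0.13, each with an adjusted p of 0.146, so neither was called. With array medians subtracted, which shifts a toxin array by -0.04 to -0.14 against the control, both were called at 48 h (adjusted p 0.0350 for Ccl11 and 0.0327 for Cxcl12, limma) and Cxcl12 at 72 h (adjusted p 0.0479, limma). The adjusted p of 0.120 and 0.146 are the smallest that any gene had in those comparisons.

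Genes of the cells known to make these 2 ligands were read alongside. The median difference of 6 blood endothelial markers ran from -1.24 to -0.92 over the toxin arrays. Their summed linear signal was 1508 in the control and 620 to 796 on the toxin arrays. In the toxin arrays against control 4 of the 6 were called lower: Kdr at -1.44, Emcn at -1.39, Plvap at -1.31 and Cdh5 at -0.84. Of all genes 4.52% were called lower there, and 6.58% in either direction. The 6 fibroblast markers had medians from -0.32 to 0.19, a summed signal of 2728 against 1960 to 2638, and 0 calls; Pdgfra was at -0.44 and Col1a1 at 0.31. Most endothelial markers were thus lower than the control, as Cxcl12 and Ccl11 were, though 1 of the 6 lay above it at 24 h. This was not particular to endothelium. The median difference of 4 chief cell markers ran from -1.18 to -0.76, and 22.6% of all genes lay below the control on all 6 toxin arrays. The part of the endothelial markers in the result was not tested. On the receiving side, Cxcr4 stayed between 5.95 and 6.04 on all arrays, and Ackr3, the scavenger of Cxcl12, differed by -0.18 ± 0.06 (SE; adjusted p 0.113, limma). Ccr3, the receptor of Ccl11, was dim at 2.44 to 2.61, and 1 of 4 measured eosinophil markers lay above the array median (Siglecf, 4.77 in the control and 4.82 to 4.93 on the toxin arrays).

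**Figure D3:**
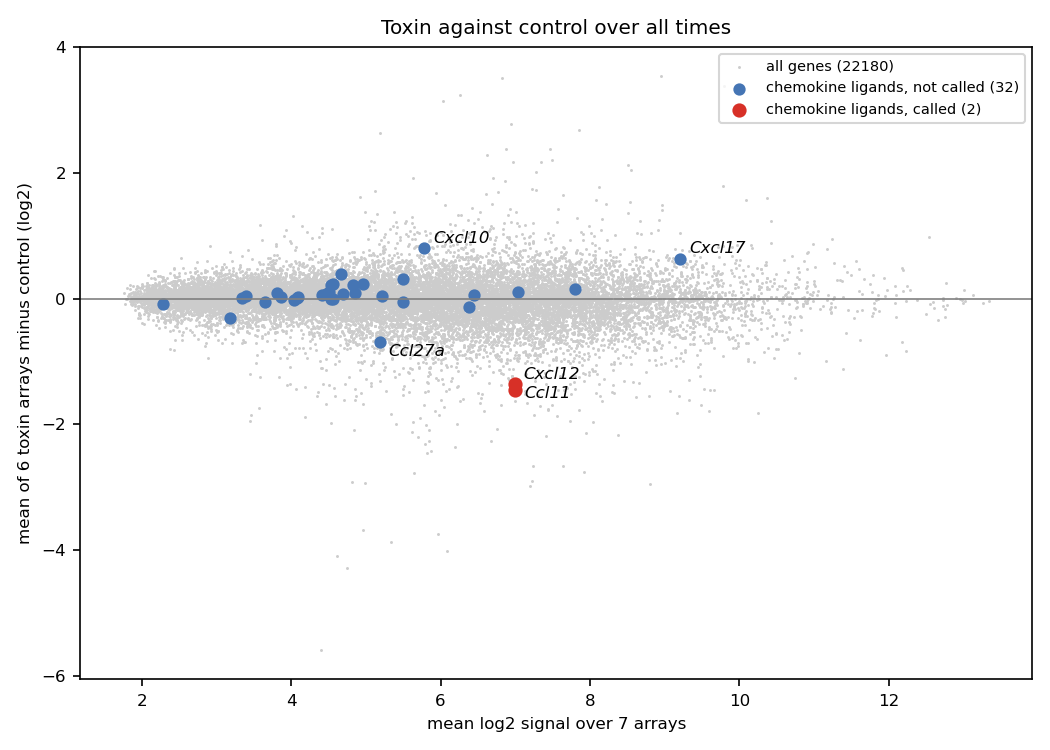
Mean of the 6 toxin arrays minus the control array in log2 units (y axis) against mean log2 signal (x axis) for all 22180 genes in grey, the 32 ligands that were not called in blue and the 2 that were called, Ccl11 and Cxcl12, in red. Most ligands lie within the grey cloud around 0, with Cxcl10 at 0.80, Cxcl17 at 0.64 and Ccl27a at -0.69 the farthest of those not called.

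**Figure D4:**
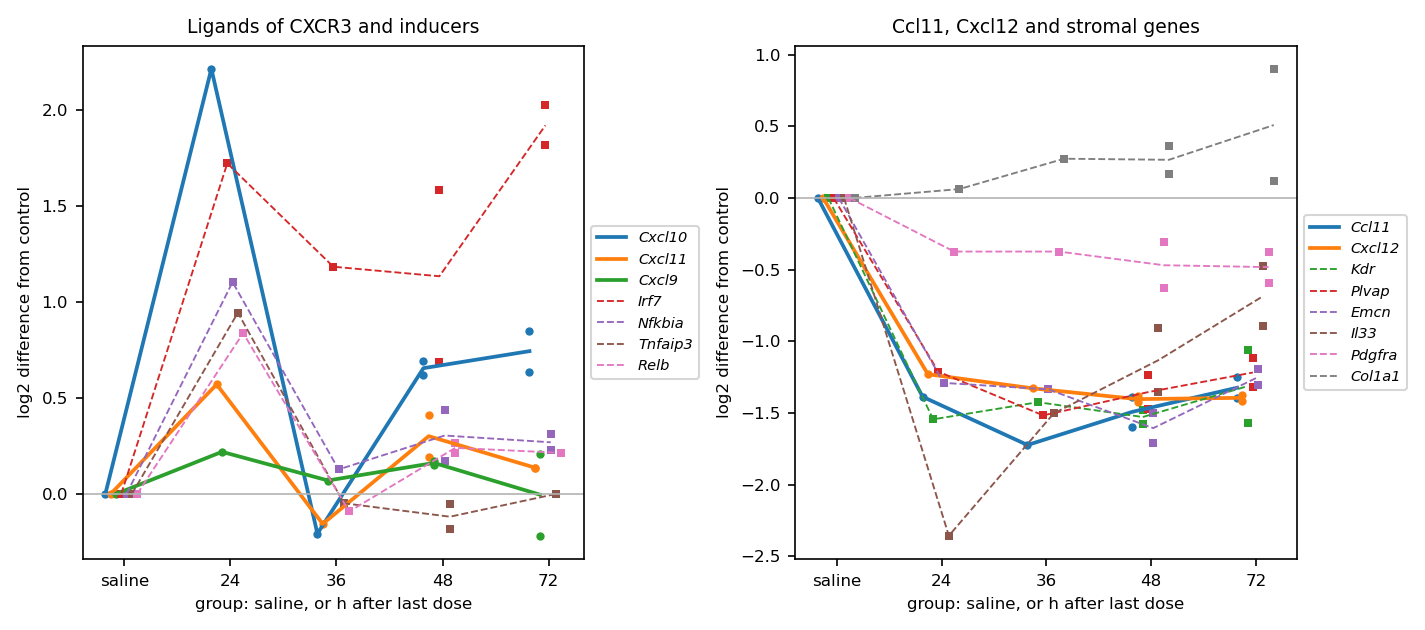
Log2 difference from the control array (y axis) by group (x axis: saline, or h after the last dose) for ligands (circles, solid lines through group means) and other genes (squares, dashed lines), 1 point per array. In the left panel Cxcl10 and Nfkbia are highest at 24 h while Irf7 stays above the control. In the right panel Ccl11 and Cxcl12 lie at the depth of the endothelial genes Kdr, Plvap and Emcn. These were the lowest of the 4 called among 6 endothelial markers. Cdh5, also called but nearer 0, and Pecam1 and Tek, which were not called, are not drawn. The fibroblast genes Pdgfra and Col1a1 lie nearer 0.

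The other eotaxins and the ligands of CCR4 and CCR8 had dim probe sets. Ccl24 ran from 4.07 to 4.15 and Ccl26 from 3.81 to 3.99, so neither showed a shift of the size seen in Ccl11. Ccl1, which binds CCR8, ran from 4.32 to 4.68. Ccl17, a ligand of CCR4 on T helper and regulatory T cells, read 3.73 in the control, 3.64 at 24 h, 3.42 at 36 h, 3.78 and 3.79 on the 48 h pair, and 4.07 and 4.25 on the 72 h pair. Ccl22, the second ligand of that receptor, read 4.08, 3.84, 3.67, 3.65, 4.24, 4.51 and 4.59 in the same order of arrays. Both were lowest at or near 36 h and highest on the 72 h arrays, which lay above both 48 h arrays.

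For Ccl17 the difference of 72 h from 48 h was 0.38 ± 0.08 (SE; unadjusted p 0.0155, adjusted p 0.705, limma) and for Ccl22 it was 0.61 ± 0.24 (adjusted p 0.740, limma). The fitted slope over the 6 toxin arrays was 0.33 per 24 h for Ccl17 (adjusted p 0.440) and 0.43 for Ccl22 (adjusted p 0.476) in limma, so neither passed. Values of both lay below the median on all 7 arrays. Their receptor Ccr4 was dimmer still, at 2.91 to 3.25.

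The Ccl17 window, chr8:94810203-94810502 on the plus strand of GRCm38.p6 from RefSeq, is shown because this gene had the smallest p of the family between 48 and 72 h. Capitals mark matches on either strand to STAT motifs with a spacer of 4 bases (TTCNNNNGAA, the form bound by STAT6, which type 2 cytokines activate) and of 3 bases (TTCNNNGAA).
Ccl17: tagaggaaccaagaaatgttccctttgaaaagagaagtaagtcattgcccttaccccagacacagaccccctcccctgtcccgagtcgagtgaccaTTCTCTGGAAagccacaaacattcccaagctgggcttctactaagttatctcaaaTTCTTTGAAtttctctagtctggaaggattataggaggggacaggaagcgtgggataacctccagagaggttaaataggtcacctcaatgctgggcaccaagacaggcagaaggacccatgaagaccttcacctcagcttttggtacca
TTCTCTGGAA lies at -154 to -145 and TTCTTTGAA at -99 to -91. Of all windows 6.95% held the first motif, as did 1 of the 23 ligand windows, and 8.3% held the second, as did 2 (Ccl17 and Cxcl14). Stat6 itself read 8.11 in the control and 8.03 to 8.37 on the toxin arrays. Whether the motifs bear on the values of Ccl17 was not tested.

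The ELR-type CXC ligands, which recruit neutrophils, mostly through CXCR2, had dim probe sets and gave no call. Of Cxcl1, Cxcl2, Cxcl3, Cxcl5 and Cxcl15, 0 of 5 lay above the median and 0 were called in any comparison. In the toxin arrays against control 6.58% of all genes were called. Cxcl1 read 4.53 in the control, 4.84 at 24 h, 4.53 at 36 h and on both 48 h arrays, and 4.0 and 4.75 at 72 h. Its 72 h arrays differed by 0.75, more than any time differed from the control. Cxcl2 read 4.37 in the control, 4.07 at 24 h, 4.32 at 36 h, 4.43 and 4.39 on the 48 h pair, and 4.76 and 4.58 on the 72 h pair. The slope of Cxcl2 was 0.28 per 24 h, with an unadjusted p of 0.000943 and an adjusted p of 0.419 in limma. Cxcl3 was the dimmest ligand, from 2.13 to 2.43. Cxcl5 ran from 3.50 to 3.84 and Cxcl15, known as lungkine, from 3.31 to 3.43. The neutrophil marker list had medians of 0.12 to 0.17 above the control on the 6 toxin arrays, with 2 of its 11 genes above the array median.

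The windows of Cxcl1 (chr5:90890995-90891294) and Cxcl2 (chr5:90903649-90903948), both on the plus strand of GRCm38.p6 from RefSeq, are shown beside that of Cxcl10. All 3 hold the NF-κB motif, in capitals, and were chosen after their values at 24 h were seen.
Cxcl1: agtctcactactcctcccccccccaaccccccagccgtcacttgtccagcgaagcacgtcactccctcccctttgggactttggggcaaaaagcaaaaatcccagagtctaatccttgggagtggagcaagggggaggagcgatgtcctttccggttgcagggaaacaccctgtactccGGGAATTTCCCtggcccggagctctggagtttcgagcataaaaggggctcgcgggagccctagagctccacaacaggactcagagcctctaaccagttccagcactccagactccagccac
Cxcl2: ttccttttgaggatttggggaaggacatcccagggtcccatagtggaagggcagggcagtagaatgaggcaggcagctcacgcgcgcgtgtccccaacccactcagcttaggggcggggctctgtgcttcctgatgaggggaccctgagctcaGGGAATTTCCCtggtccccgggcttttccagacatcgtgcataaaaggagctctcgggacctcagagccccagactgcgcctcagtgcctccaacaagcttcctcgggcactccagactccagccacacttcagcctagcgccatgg
In both, the motif overlaps its own reverse complement, so the capitals run over 1 base more than GGGANNTTCC. On the 24 h array Cxcl10 stood 2.21 above the control, Cxcl1 0.30 above it, and Cxcl2 differed by -0.30. Whether the motif bears on these values was not tested.

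Ligands of CCR2, which bring monocytes out of the blood, stayed within 0.5 of the control in every group mean. Ccl2 read 4.62 in the control and 4.55 to 4.90 on the toxin arrays. Ccl7 read 4.37 in the control and 4.42 to 4.77, above it on all 6 toxin arrays, though not with array medians subtracted or quantile normalisation repeated. Ccl12 read 3.46 in the control, 3.20 at 24 h, 3.19 at 36 h, 3.02 and 3.12 on the 48 h pair, and 3.13 and 3.22 on the 72 h pair. It was below the control on all 6, at -0.31 ± 0.08 (SE; adjusted p 0.0851, limma), on one of the dimmest probe sets of the family. Ccl8 stood at 3.33 to 3.37. Of 14 macrophage and monocyte markers, 1 was called lower and 1 higher in the toxin arrays against control, where 6.58% of all genes were called. Ly6c2, a marker of the monocytes that CCR2 directs, fell by 1.42 (adjusted p 0.0120, limma). Its probe set lay below the array median on 6 arrays. Lyz2, a lysozyme of macrophages, rose by 0.75 (adjusted p 0.0357, limma). The median difference of the 14 markers lay between -0.10 and 0.17 on the toxin arrays.

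Of the other inflammatory CC ligands, the pair made constitutively by mouse myeloid cells was higher at 24 h. Ccl9 read 5.22 in the control, 5.90 at 24 h, 5.19 at 36 h, 5.48 and 5.39 on the 48 h pair, and 5.72 and 5.54 on the 72 h pair. Ccl6 read 4.34 in the control, 4.93 at 24 h, 4.57 at 36 h, 4.80 and 4.70 on the 48 h pair, and 4.70 and 4.66 on the 72 h pair. Both were highest on the 24 h array (by 0.68 and 0.60) and lowest among the toxin arrays at 36 h, and Ccl6 lay above the control on all 6. Over the toxin arrays together the difference was 0.39 ± 0.13 (SE) for Ccl6 (adjusted p 0.127, limma) and 0.31 ± 0.24 for Ccl9 (adjusted p 0.574, limma), and neither was called. Ccl4 read 4.77 in the control, 4.70 at 24 h, 5.04 at 36 h, 5.22 and 5.20 on the 48 h pair, and 4.82 and 5.0 on the 72 h pair. Both of its 48 h arrays exceeded both 72 h arrays, by 0.31 on average (a difference of -0.31 ± 0.08, SE; adjusted p 0.705, limma). Ccl3 ran from 4.40 to 4.63 and Ccl5 from 5.17 to 5.40.

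Among the epithelial ligands, Cxcl17 and Ccl20 were above the control on all 6 toxin arrays, Cxcl17 by more. Cxcl17, a mucosal chemokine abundant in stomach, read 8.66 in the control, 9.41 at 24 h, 9.08 at 36 h, 9.48 and 9.19 on the 48 h pair, and 9.45 and 9.16 on the 72 h pair. All 6 toxin arrays exceeded the control under every scaling tried. The difference was 0.64 ± 0.17 (SE), or 1.56-fold, and missed the threshold (adjusted p 0.0764, limma; 0.0528 to 0.122 over 10 settings). The general epithelial markers, 5 genes, also lay above the control on all 6 arrays, with medians of 0.15 to 0.42; their part in the value of Cxcl17 was not tested.

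Cxcl16, a membrane-anchored ligand and scavenger receptor whose receptor is CXCR6, read 7.68 in the control, 8.22 at 24 h, 7.50 at 36 h, 8.09 and 7.58 on the 48 h pair, and 7.77 and 7.79 on the 72 h pair. The gap of 0.51 between its 48 h arrays was about as large as its 24 h difference of 0.54. Its higher values fell at 24 h and on the first array of 48 h, the same 2 on which the parietal markers were lowest. Cd68 and Nfkb2 were also highest on those 2 arrays. The match was seen after the values were known, and a link with the parietal markers was not tested.

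Ccl27a, a ligand of CCR10 best known from skin, read 5.79 in the control, 5.27 at 24 h, 5.16 at 36 h, 5.20 and 5.17 on the 48 h pair, and 4.67 and 5.12 on the 72 h pair. Every toxin array was below the control, and the first 72 h array was apart from the rest. That array also had the highest summed linear signal of the squamous forestomach markers (688, against 402 in the control and 127 on the other 72 h array) and of the mast cell markers (349, against 137 and 154); their part in the Ccl27a value was not tested. The difference over all toxin arrays was -0.69 ± 0.21 (SE; adjusted p 0.106, limma). Without the first 72 h array it was -0.60 and was called (adjusted p 0.0212, limma). A second probe set of the gene read 5.05 in the control and 4.34 to 5.05 on the toxin arrays, and with the mean of both probe sets the 36 h difference went from -0.62 to -0.31.

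The remaining epithelial ligands differed from the control by less than 0.5 in every group mean. Cxcl14 read 6.94 in the control and 6.81 to 7.36 on the toxin arrays, with the highest at 24 h. Ccl28, which draws IgA plasma cells to mucosa, read 6.49 and 6.10 to 6.60. Ccl20, the ligand of CCR6, read 4.65 and 4.71 to 5.17, above the control on all 6 arrays under every scaling. Ccl25 ran from 5.34 to 5.59, and Cx3cl1 read 6.41 on 6 arrays and 6.71 on the first 48 h array. The lymphoid chemokine Cxcl13 read 4.79 in the control and 5.14 at 24 h, against 4.79 to 4.93 on the other toxin arrays. Xcl1, the C chemokine of natural killer and CD8 T cells, ran from 3.89 to 4.18.

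**Figure D5:**
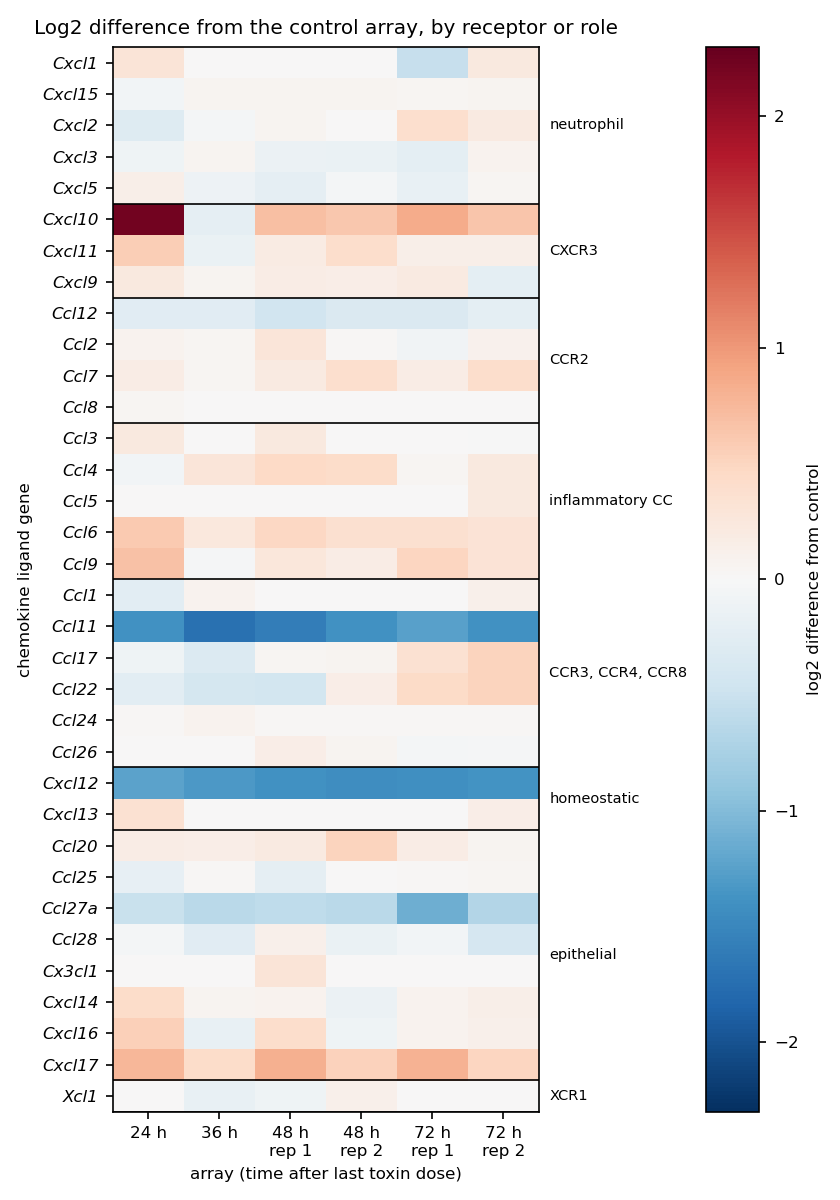
Log2 difference from the control array (colour, red above and blue below) for the 34 ligands (y axis, grouped by receptor or role) on the 6 toxin arrays (x axis). The strongest colours are those of Cxcl10 at 24 h and of Ccl11 and Cxcl12 on all 6 arrays. In every group mean 25 of the 34 ligands stayed under 0.5 in size. Of these 25, 16 have a mean below the median level, and the share of all genes within that bound was not computed.

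Seen as a family, the ligands had a median difference from the control close to that of all genes. At 24 h, 3 of 34 differed from the control by at least 2-fold (Cxcl10 higher, Ccl11 and Cxcl12 lower), against 2.88% of all genes (1.2% higher and 1.67% lower). At 36 h there were 2 of 34, Ccl11 and Cxcl12, both lower, against 2.54% of all genes and 1.61% in that direction. Among genes above the median level the shares were 3 of 17 ligands against 4.38% at 24 h and 2 of 17 against 3.86% at 36 h; these are single arrays with no test. Within the pairs, 0 of 34 ligands were 2-fold apart, against 0.482% of all genes at 48 h and 0.32% at 72 h. The median difference of the 34 ligands lay between 0.00 and 0.09 on each toxin array, and was 0.00 for all genes. Subtracting the array medians lowers all genes of a toxin array alike and leaves the ligands' place among them as it was.

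In limma 0 of 34 ligands and 0% of all genes were called at 48 h against control, at 72 h against control, between 72 h and 48 h, and for the slope over the toxin arrays. At an unadjusted p under 0.05 there were 7 of 34 ligands at 48 h (19.7% of all genes), 9 of 34 at 72 h (17.9%), 2 between 72 h and 48 h (Ccl17 and Ccl4; 7.07%) and 3 for the slope (Ccl17, Ccl22 and Cxcl2, all higher with time; 8.7%, or 4.22% in that direction). The counts at 48 h, for 72 against 48 h and for the slope lie near the background. All 6 toxin arrays lay above the control in 7 ligands (Ccl20, Ccl24, Ccl5, Ccl6, Ccl7, Ccl8 and Cxcl17; 20.2% of all genes) and below it in 4 (Ccl11, Ccl12, Ccl27a and Cxcl12; 22.6%). With array medians subtracted these counts were 3 (Ccl20, Ccl6 and Cxcl17; 12.2% of all genes) and 8, with Ccl24, Ccl25, Ccl8 and Xcl1 added below (35.8% of all genes). Both 72 h arrays exceeded both 48 h arrays in 6 ligands (Ccl12, Ccl17, Ccl22, Ccl25, Ccl9 and Cxcl2; 16.7% of all genes) and lay under them in 5 (Ccl20, Ccl26, Ccl27a, Ccl4 and Cxcl11; 13% of all genes).

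Receptors and decoys gave no call. Of 17 chemokine receptors measured 8 lay above the array median, and 0 were called in the toxin arrays against control. There 6.58% of all genes were called, so 0 calls among so few genes is not a result about the receptors. Of those 8, the 3 with the widest difference at any time were Cx3cr1 (6.29 in the control, 6.81 at 36 h, 6.03 to 6.48 on the others), Xcr1 (4.36 and 4.50 to 4.87) and Ccr7 (4.66 and 4.68 to 4.97). Of 5 atypical receptors, which bind chemokines without classical signalling, 0 were called; Ccrl2, which binds chemerin and is grouped with them, differed by -0.63 ± 0.22 (SE; adjusted p 0.150, limma) and Ackr2 by 0.09 ± 0.20. Pf4 and Ppbp, platelet chemokines whose symbols fall outside the naming rule, stayed within 4.10 to 4.49 and 3.83 to 4.26. Il33, an alarmin that induces type 2 chemokines, read 8.45 in the control, 6.09 at 24 h, 6.95 at 36 h, 7.54 and 7.10 on the 48 h pair, and 7.55 and 7.98 on the 72 h pair. Its toxin arrays were all below the control and farthest from it at 24 h, at an adjusted p of 0.312 in limma over all toxin arrays.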

How the data were processed

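Total RNA of gastric corpus was labelled as biotinylated cDNA and measured on 7 Affymetrix arrays. The deposited log2 signals of 41345 probe sets had been made by the authors with RMA in Partek, per the submitters' processing notes; their versions are not stated in the sources used here. They were used with no further scaling. Probe sets with 1 annotated gene (23521; 1814 had several, 16010 none) were kept, and the highest mean was taken per gene. All 34 members matched the RefSeq gene table by identifier. Columns of samples not used number 0.

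Tests were two-sided, by lmFit and eBayes of limma 3.58.1 under R 4.3.3, with group means over 7 arrays (2 residual degrees of freedom, 1.15 prior), a slope over the 6 toxin arrays (4 and 1.83), and toxin against control over all times (5 and 1.76). The fits were checked on simulated data. The members, lists and comparisons were chosen with earlier results of these data known.

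Ligands were given with a value on every array if their mean exceeded the median of array medians and a group differed by at least 0.5 from control, or if they were called; some others are given likewise and were chosen after their values were seen. The 3 receptors, atypical receptors and genes of the list of inducers and NF-κB targets above the median with the widest difference were named. The 48 h and 72 h arrays share replicate numbers, and the labels do not say whether these pair the arrays. Alternatives were a repeated quantile normalisation, subtracted array medians, the mean of probe sets, only genes above the median, a robust prior, a replicate block, and single toxin arrays left out. The 24 h and 36 h arrays were left out only for the slope and for toxin against control. The control array was never left out.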

Additional observations from a re-analysis of the deposited data

Results flagged for a closer look

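In 10 of the 34 ligands 1 of the 6 toxin arrays stood apart from the other 5 by a gap larger than 0.625 of their range. Chance gives this in about 1 in 20 groups, but the 6 arrays are of 4 times, and repeated summary values shrink the range. The share over all genes was not computed, so the count is not a result about the ligands. The first 72 h array was lowest for Ccl27a, at 4.67, and for Cxcl1, at 4.0. The second 72 h array was highest for Ccl5, at 5.40, and lowest for Cxcl9, at 4.21. At 24 h Ccl8 was highest, at 3.37, and Ccl1 and Cxcl15 were lowest, at 4.32 and 3.31. The 36 h array was highest for Ccl24, at 4.15. The 48 h arrays were highest for Cx3cl1, at 6.71 on the first, and Ccl20, at 5.17 on the second. The 24 h value of Cxcl10 is the largest difference of the family but was not set apart by this measure.

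Ccl26 lay above the control on both 48 h arrays and below it on both 72 h arrays, a change of -0.135 between the group means. That both pairs lie on opposite sides was not tested, and the probe set is below the array median on all 7 arrays.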

How the results depend on the processing

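Of the recomputed values 164 kept their side of the threshold, or moved by less than the spread between replicates, 8 moved and 4 newly passed the test; 0 reversed. With array medians subtracted, 2 ligands were called at 48 h (Ccl11 at -1.61 and Cxcl12 at -1.52; 167 genes in all) and 1 at 72 h (Cxcl12 at -1.45; 30 genes), against 0 in the deposited scaling. Quantile normalisation repeated called 0 ligands at both times. Leaving out single arrays gave 0 calls at 48 h, 72 h, 72 against 48 h and for the slope, and 2 to 3 ligands in toxin against control; the third was Ccl27a (-0.60), called without the first 72 h array. All genes called there fell from 1460 to 902 without the first 72 h array and to 958 without the 36 h array. The Ccl11 adjusted p ran from 0.00547 to 0.0220 and that of Cxcl12 from 0.00157 to 0.0134 over 10 settings. Ccl6 moved to 0.50 and 0.52 at 24 h and to 0.13 and 0.14 at 36 h under the 2 other scalings. The cause of these changes was not tested. A replicate block called 0 ligands at 48 h, 72 h and between them, as did a crossed pairing added after the data were seen. The labels do not say whether the replicate numbers pair the arrays. The pair differences of 48 h and 72 h had a correlation of -0.13 across genes, which cannot settle this. The single control array limits every comparison with the control, and dim probe sets limit 17 ligands.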
